A study of Homo sapiens with 5 samples.

Results

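ZBTB7A binding was examined at the 4 HOX clusters, the blocks of homeobox genes that pattern the body axis. The clusters were taken as 4 windows of the hg19 build, set by position alone: HOXA at chr7:27080000-27300000, HOXB at chr17:46550000-46860000, HOXC at chr12:54280000-54500000 and HOXD at chr2:176900000-177100000. A ZBTB7A peak belonged to a window when its summit, the base of highest signal, lay inside. The windows span 0.95 Mb. They held 49 peaks of the 37782 in the CSS list, 33 of the 34120 in the DHT list and 95 of the 124868 in the FBS list. After overlapping peaks of the 3 lists were merged, 126 of 151256 regions lay in them.

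The data are chromatin immunoprecipitation and sequencing (ChIP-seq) with an antibody to ZBTB7A in VCaP, a single established line of prostate cancer with an active androgen receptor. CSS denotes cells that had vehicle for 4 hours while in 5% hormone-depleted serum (2 libraries), DHT denotes cells given 10 nM of the androgen DHT in the same medium and for the same time (2 libraries), and FBS denotes routine culture in 10% full serum (1 library). The FBS library carries the same treatment text as the others, so its lack of added DHT was read from its culture condition and from the series design. Each condition has 1 deposited peak list and no values per library, so the spread between libraries could not be measured, no p-value is given, and all intervals are exact 95% intervals that cover counting error only. Read depth is unknown, so a place with no peak is a place where none was called and does not show that ZBTB7A was absent.

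HOX genes encode homeodomain transcription factors and lie in the order in which they act along the body axis, with low-numbered genes used toward the head and high-numbered ones toward the tail and the urogenital tract. In differentiated cells, unused stretches of the clusters are kept silent by Polycomb proteins. HOXB13 stands somewhat apart from the rest of its cluster and is a lineage factor of the prostate that works with the androgen receptor. ZBTB7A, also known as LRF or Pokemon, is a zinc finger factor of the BTB family that prefers stretches rich in C and G and is best known for silencing the fetal globin genes.

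The RefSeq gene table used here, on GRCh38, lists all 38 HOX genes of the 4 clusters on the 4 chromosomes of the windows. By rising position the order runs from HOXA2 to HOXA13, from HOXB1 to HOXB13, from HOXC13 to the group HOXC4, HOXC5 and HOXC6, and from HOXD13 to HOXD1. That table is on another build than the peaks, so it was used only for names and order. Among the HOX genes, only HOXB13 has an hg19 position here (chr17:46802000-46806000), so other peaks are given by their place in a window and not by gene.

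The promoters of the HOX genes are shown around 2 C-rich words, as sequence context and not as sites. RefSeq promoters of 300 bases on GRCh38.p14, from 250 before to 50 after a start site, were held for 20 of the 38 genes (27 promoters). Of these, 16 were of HOXA, 1 of HOXB, 2 of HOXC and 8 of HOXD, so HOXB and HOXC were hardly covered. The word CCTTCCC, part of the fetal globin element that ZBTB7A binds, was searched on both strands, and stood in 3 of the 27, against 15.4% of all 35116 promoters in the table. All 3 were among the 16 of HOXA (18.8%). The 3 stretches lie in the HOXA cluster, on the minus strand, and are printed 5′ to 3′ with the word, or its reverse complement GGGAAGG, in capitals. HOXA2 (chr7:27102787-27102837) has the word from base 132 before its start, HOXA3 (chr7:27113889-27113939) from base 75 and HOXA4 (chr7:27130821-27130871) from base 92.
HOXA2: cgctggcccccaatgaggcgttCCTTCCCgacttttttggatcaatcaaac
HOXA3: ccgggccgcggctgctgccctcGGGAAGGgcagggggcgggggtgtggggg
HOXA4: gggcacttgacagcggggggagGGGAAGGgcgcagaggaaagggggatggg

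A shorter C-rich word, GACCC or its reverse complement GGGTC, stood in 17 of the 27 promoters (63.0%), against 47.6% of all promoters. It was found for 13 of the 20 genes, against 14144 of the 27305 genes with a promoter in the table. No interval was computed for these shares, so an excess in HOX promoters is not shown. The promoters are not all separate, since HOXC4 and HOXC5 share 1 entry and HOXA3 has 7. HOXA13 and HOXD13, which act in the limb tips and the urogenital tract, serve as examples. HOXA13 (chr7:27200171-27200219, minus strand) has the word from base 106 before its start and HOXD13 (chr2:176092475-176092523, plus strand) from base 224.
HOXA13: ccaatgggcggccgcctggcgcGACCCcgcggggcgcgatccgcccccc
HOXD13: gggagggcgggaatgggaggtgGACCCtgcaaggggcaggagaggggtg

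The 27 HOX promoters held, most of them of HOXA, had a median GC content of 58.0%, close to the 58.7% over all promoters. They ranged from 43.7% (1 of the 7 HOXA3 promoters) to 76.3% (HOXA13). They held a median of 22 CG dinucleotides against 14 over all promoters. No peak could be placed on any of these promoters, so the words and the peaks below were not joined.

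The first question was whether ZBTB7A peaks are dense or sparse in the HOX clusters. They were dense in every condition. Counting by summit, CSS peaks lay at 51.6 per Mb in the windows (49 peaks, 36.3 to 64.8) against 11.9 per Mb over the assembled chromosomes, 4.32 times the density of the rest of the list (3.20 to 5.71). DHT peaks lay at 34.7 per Mb (33 peaks, 22.7 to 46.3) against 10.8, a ratio of 3.21 (2.21 to 4.51). FBS peaks lay at 100 per Mb (95 peaks, 76.9 to 116) against 40.1, a ratio of 2.50 (2.02 to 3.05).

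By point values, HOXA was the densest cluster in CSS and in DHT and HOXB the sparsest in all 3 lists. The HOXA window held 16 CSS, 11 DHT and 24 FBS peaks, and the HOXB window, the longest at 310 kb, held 11, 6 and 27. The HOXC window held 11 CSS, 10 DHT and 21 FBS peaks, and the HOXD window 11, 6 and 23. Relative to the rest of the list, CSS peaks were 6.09 times as dense in HOXA (3.48 to 9.89), 4.60 times in HOXD (2.30 to 8.24), 4.19 times in HOXC (2.09 to 7.49) and 2.97 times in HOXB (1.48 to 5.32). The intervals of all these clusters overlap, those of HOXA and HOXB included, so the order is not resolved beyond counting error. For DHT the ratios were 4.62 in HOXA (2.31 to 8.28), 4.20 in HOXC (2.02 to 7.73), 2.77 in HOXD (1.02 to 6.04) and 1.79 in HOXB (0.657 to 3.90), so the DHT density of HOXB did not differ from the rest of the list beyond counting error. For FBS they lay closer together, from 2.17 in HOXB (1.43 to 3.16) to 2.87 in HOXD (1.82 to 4.31).

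Set beside all stretches of the same length along the chromosomes, HOXA was in the extreme tail for CSS. Of 12910 tiles of 220 kb that held a peak of any list, 34 (0.263%) had as many as its 16 CSS peaks, and the median tile had 2. As many DHT peaks as in HOXA were seen in 0.844% of these tiles and as many FBS peaks in 5.28%. For HOXC the shares were 1.40% in CSS, 1.38% in DHT and 8.80% in FBS. For HOXD, with tiles of 200 kb, they were 1.07%, 8.55% and 4.38%. For HOXB, with tiles of 310 kb, they were 4.19%, 21.5% and 10.9%.

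The surroundings of the clusters differed. HOXA and HOXD stood out from the 500 kb on each side, while HOXB and HOXC did not. Beside HOXA, CSS and DHT peaks each lay at only 7 per Mb, and the window was 10.4 times as dense in CSS (4.04 to 29.9) and 7.14 times in DHT (2.53 to 21.7). HOXD was 5.00 times as dense as its flanks in CSS (1.97 to 12.7) and 2.74 times in FBS (1.57 to 4.66), and the DHT ratio of 3 had an interval that included 1 (0.896 to 9.11). With both sides pooled, the flanks of HOXB were themselves rich in peaks, at 28 CSS, 25 DHT and 79 FBS peaks per Mb. The ratios of HOXB were 1.27 in CSS, 0.774 in DHT and 1.10 in FBS. Its flanks were uneven, since no CSS summit was called in the 250 kb just below the window. HOXC had flanks with 31 CSS, 30 DHT and 100 FBS peaks per Mb and ratios of 1.61, 1.52 and 0.955. All 6 intervals for HOXB and HOXC included 1. The comparison with the flanks was added after the data had been seen.

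**Figure D1:**
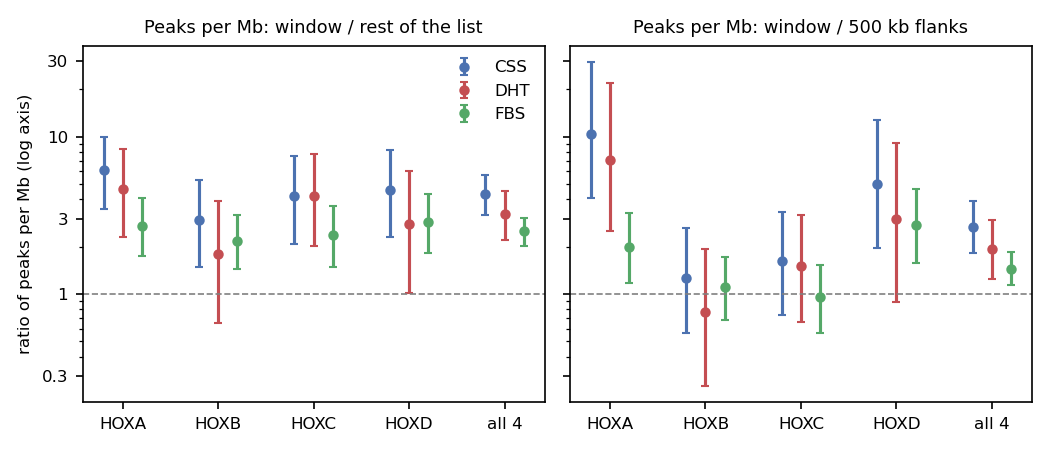
Peaks per Mb in each HOX window as a ratio to the rest of the list (left) and to the 500 kb on each side of the window (right), for CSS, DHT and FBS; points are ratios, bars exact 95% intervals for counting error, and the dashed line marks equal density on a log axis. Against the list all intervals lie above 1 except HOXB in DHT; against the flanks only those of HOXA in each list, of HOXD in CSS and FBS and of the 4 windows together do, with HOXA highest at 10.4 in CSS.

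Counting all peaks, the HOX clusters took a smaller share of the full-serum list than of the vehicle list. The order of the point values turned above fixed cutoffs of peak confidence, but not among equal numbers of top peaks. The windows held 1.94 times as many FBS as CSS peaks, while the lists themselves differed 3.30-fold in length. The share of the FBS list in the windows was 0.587 times that of the CSS list (0.411 to 0.846), and in HOXA 0.454 times (0.231 to 0.914). For the other clusters this ratio lay between 0.578 in HOXC and 0.743 in HOXB, with intervals that included 1. Against DHT the FBS share was 0.787 times as large (0.524 to 1.21). The DHT share was 0.746 times the CSS share over the 4 windows (0.465 to 1.18), ranging from 0.604 in HOXB and in HOXD to 1.01 in HOXC, and none of these differed from 1 beyond counting error. The −log10 q is the confidence value that the authors' peak caller gave each peak. Among peaks reaching 5, the density relative to the list was 2.64 for FBS (41 peaks) and 2.36 for CSS (13 peaks). Among those reaching 10 it was 3.25 for FBS and 0.610 for CSS, the last from 1 peak. With equal numbers of top peaks by −log10 q, the density was 4.30 for CSS and 2.80 for FBS. No interval was computed for these values. Because −log10 q depends on depth, a fixed cutoff need not mean the same in each list.

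Strong peaks were few in the HOX clusters, and in CSS they were fewer than in the list beyond counting error. A peak is called strong here when its −log10 q is at least 10. Of the 49 CSS peaks in the windows, 1 was strong (2.04%, 0.0517 to 10.9%), against 14.5% of the CSS list. Of the 33 DHT peaks, 1 was strong (3.03%, 0.0767 to 15.8%), against 11.8% of the DHT list, a difference within counting error. Of the 95 FBS peaks, 6 were strong (6.32%, 2.35 to 13.2%), against 4.92% of the FBS list, also within counting error. Counting strong peaks only, the windows were no denser than the rest of the list in CSS (ratio 0.610) or DHT (0.824), which rest on 1 peak each, and 3.25 times as dense in FBS.

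Ranks within the lists also placed the CSS and DHT peaks low. Every peak was given its percentile by −log10 q in its own list, where the median of all peaks is 50. The median HOX peak stood at percentile 38.4 in CSS (20.8 to 44.6), 28.5 in DHT (17.3 to 47.5) and 54.9 in FBS (36.1 to 63.4). HOXC was lowest in CSS (27.9) and in DHT (23.3), with intervals that overlap those of the other clusters. In FBS the medians ran from 45.4 in HOXA to 58.1 in HOXB. Ranked by fold enrichment over background, another value the authors deposited for each peak, the median HOX peak stood at percentile 27.7 in FBS, 37.1 in CSS and 37.6 in DHT. This gap in FBS was widest for HOXB (58.1 by −log10 q, 20.6 by fold) and HOXC (53.7 and 15.5), and narrower for HOXA (45.4 and 35.4) and HOXD (51.9 and 36.3).

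**Figure D2:**
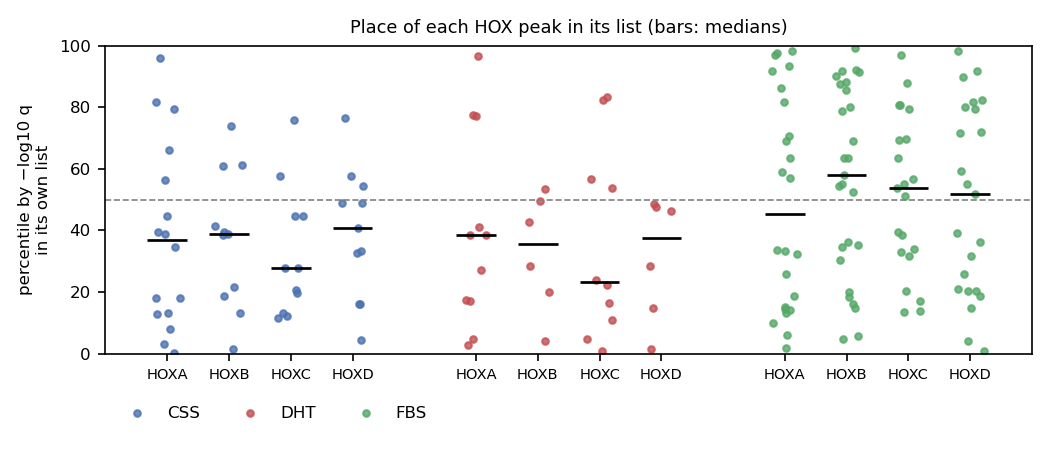
Percentile by −log10 q of every HOX peak in its own list (y axis), by cluster and list; each point is 1 peak, black bars are medians and the dashed line marks the median of a whole list. CSS and DHT medians lie between 23.3 and 40.8, and FBS medians between 45.4 and 58.1.

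No HOX peak was wide. Peaks of at least 1000 bp numbered 0 of 49 in CSS, 0 of 33 in DHT and 0 of 95 in FBS, which allows shares of up to 7.25%, 10.6% and 3.81% by the exact interval. The lists as a whole had 1.87%, 1.36% and 0.979%, so a lower share in the HOX clusters was not detectable at these numbers. Peaks of at least 500 bp numbered 2 in CSS (4.08%, against 12.4% of the list), 2 in DHT (6.06%, against 11.2%) and 13 in FBS (13.7%, against 9.24%). The widest were a CSS peak of 903 bp at chr7:27083906-27084808 near the low edge of the HOXA window and an FBS peak of 853 bp at chr7:27169593-27170445.

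In CSS and FBS, HOX peaks had a close neighbour more often than the peaks of their list did. Another summit of the same list lay within 1 kb for 19 of 49 CSS peaks (38.8%, 25.2 to 53.8%), against 17.7% of the CSS list. The share was 27.3% in DHT (9 of 33, 13.3 to 45.5%), against 17.0%, and 40.0% in FBS (38 of 95, 30.1 to 50.6%), against 17.7%. The excess was thus beyond counting error in CSS and FBS and not in DHT. The density of the windows, given above, moves with this share, and its part in it was not tested. By cluster it ran from 18.2% in HOXD to 50% in HOXA for CSS and from 29.6% in HOXB to 52.2% in HOXD for FBS.

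Within each cluster the peaks were uneven. In HOXA, CSS summits were absent over 50.8 kb from 27085192 to 27136032, where FBS had a run of 5 summits from 27109281 to 27117980. The longest stretch of the HOXA window without a DHT summit was 69.2 kb, from 27170591 to 27239817, where CSS and FBS both had peaks. In HOXB, 8 of 11 CSS and 5 of 6 DHT summits lay below the middle of the window, away from HOXB13, while FBS summits were spread evenly (13 and 14). In HOXD the densest 20 kb of any cluster or list held 7 FBS summits, from 176944784 to 176962263 on the HOXD13 side, and 3 CSS summits stood in the same stretch. All 3 lists lacked summits in HOXD between 177005415 and 177037203.

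**Figure D3:**
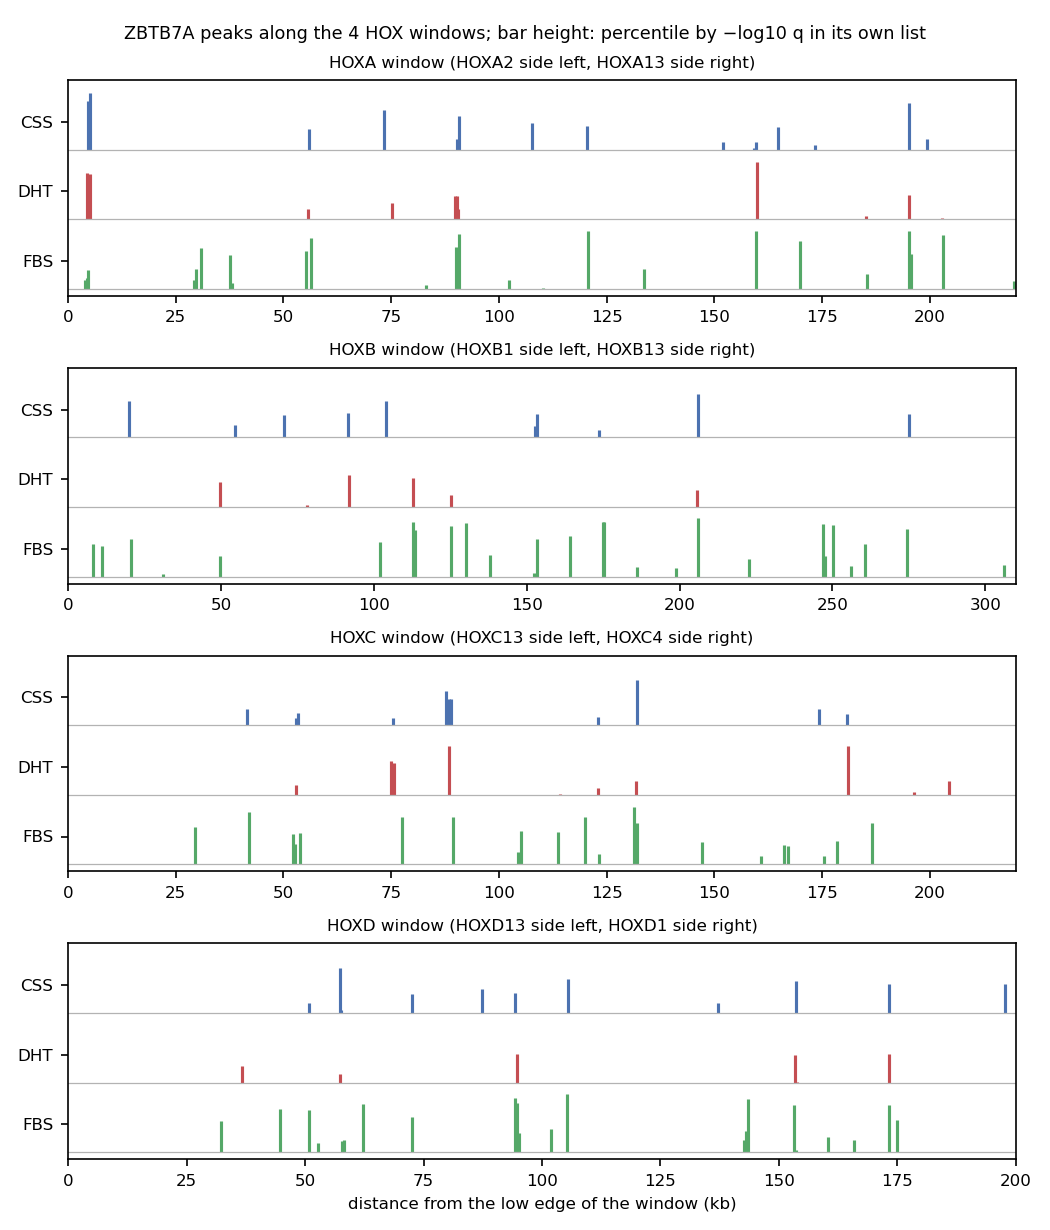
Position of every peak summit along the 4 HOX windows (x axis, kb from the low edge of the window) in CSS, DHT and FBS; the height of a line is the peak's percentile by −log10 q in its own list, from 0 at the grey baseline. CSS and DHT lines are few and mostly short, and FBS lines fill places that lack the others, such as the right part of HOXB.

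The next comparison asked how far CSS and DHT, the 2 conditions in hormone-depleted serum, marked the same places. In the HOX clusters they did so less often than over the CSS list as a whole. A partner, here a peak of the other list that overlaps by at least 1 bp, was present in DHT for 20 of 49 CSS peaks (40.8%, 27.0 to 55.8%), against 56.8% of the CSS list. In the other direction 18 of 33 DHT peaks (54.5%, 36.4 to 71.9%) had a CSS partner, against 63.9% of the DHT list, a difference within counting error. Among CSS peaks, the share with a DHT partner was highest in HOXC, at 8 of 11 (72.7%, 39.0 to 94.0%), and lowest in HOXB, at 2 of 11 (18.2%, 2.28 to 51.8%), with 7 of 16 in HOXA and 3 of 11 in HOXD. Among DHT peaks, a CSS partner was present for 7 of 11 in HOXA, 6 of 10 in HOXC, 3 of 6 in HOXD and 2 of 6 in HOXB. The intervals of the clusters overlap in both directions. For the 13 CSS peaks of the windows whose −log10 q reached 5, the share with a DHT partner was 61.5%. The whole-list share at that cutoff is not given here, so 61.5% cannot be set against the 56.8% of all CSS peaks. The part of peak strength in the lower share was not tested.

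For HOX peaks called in both conditions, the median difference in place between the 2 lists was larger than over the CSS list as a whole. For each of the 20 CSS peaks, its percentile was set beside that of its strongest overlapping DHT peak. The median absolute difference was 37.8 percentile points, against 17.0 points for the 21455 CSS peaks with a DHT partner in the whole list. The 20 pairs are not all separate. The CSS summits 54368494 and 54368869 of HOXC have the same DHT partner, and both differ from it by the median value. The DHT peak stood at least 50 points higher for 2 of the 20 (10%, against 4.41% of all such peaks) and at least 50 points lower for 3 (15%, against 5.49%). No interval was computed for the median difference or for these shares, which rest on very few peaks. The part of peak strength in these differences was not tested. A position in a list has no error here and depends on the depth and control of that list, so these are descriptions of the lists and not of a response to DHT.

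The peak farthest apart lay in HOXA at chr7:27239643-27240007, toward the HOXA13 side of the window. In DHT it was the strongest HOX peak, with a fold enrichment of 10.3, a −log10 q of 13.9 and rank 1171 of 34120. In CSS the overlapping peak, chr7:27239610-27239832, had a fold enrichment of 4.44, a −log10 q of 3.0 and rank 32739 of 37782. The FBS peak there was also strong, at a fold enrichment of 5.62, a −log10 q of 11.7 and rank 3833 of 124868. The other DHT peak that stood far higher than its CSS partner was in HOXC at chr12:54460727-54461030, at percentile 83.3 in DHT and 19.6 in CSS, with no FBS partner.

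In the opposite direction, the strongest HOXD peak of CSS, chr2:176957136-176957429 on the HOXD13 side, stood at percentile 76.4 in CSS and its DHT partner at 14.7. The strongest HOXC peak of CSS, chr12:54411689-54412125, stood at 76.0 in CSS and 22.5 in DHT. The other CSS peak of this kind, in HOXD at chr2:177053551-177054026, stood at 54.3, and the DHT peak that overlapped it at 1.67. A second DHT peak of the same merged region, chr2:177053103-177053522, did not overlap that CSS peak and stood at 46.3, so this difference rests on the overlap rule. At the strongest HOX site of CSS, chr7:27084893-27085319 in HOXA (fold enrichment 8.76, −log10 q 16.6, rank 1514), the DHT peak stood at percentile 77.1 against 96.0 in CSS, and no FBS peak overlapped it.

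FBS shared more with the depleted-serum lists in the HOX clusters than elsewhere. A peak of either depleted-serum list overlapped 28 of the 95 FBS peaks (29.5%, 20.6 to 39.7%), against 17.2% of the FBS list. The share with a CSS partner was 22.1% (21 peaks, 14.2 to 31.8%), against 13.5%, and with a DHT partner 20% (19 peaks, 12.5 to 29.5%), against 13.3%, the second within counting error. HOXA (11 of 24, 45.8%, 25.6 to 67.2%) and HOXD (9 of 23, 39.1%, 19.7 to 61.5%) lay above the background beyond counting error. HOXB (6 of 27, 22.2%, 8.62 to 42.3%) and HOXC (2 of 21, 9.52%, 1.17 to 30.4%) did not differ from it beyond counting error. CSS and DHT peaks are denser in the windows than elsewhere, and the part of that density in these shares was not tested.

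Seen from the depleted-serum lists, HOX peaks had FBS partners about as often as others. An FBS peak overlapped 20 of 49 CSS peaks (40.8%, 27.0 to 55.8%), against 44.1% of the CSS list, and 19 of 33 DHT peaks (57.6%, 39.2 to 74.5%), against 48.2% of the DHT list. The clusters differed in their point values. HOXD had FBS partners for 7 of 11 CSS and 4 of 6 DHT peaks, and HOXA for 7 of 16 and 9 of 11. HOXC had FBS partners for 2 of 11 and 2 of 10. With these numbers the intervals of HOXC (2.28 to 51.8% in CSS) and HOXD (30.8 to 89.1%) overlap.

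**Figure D4:**
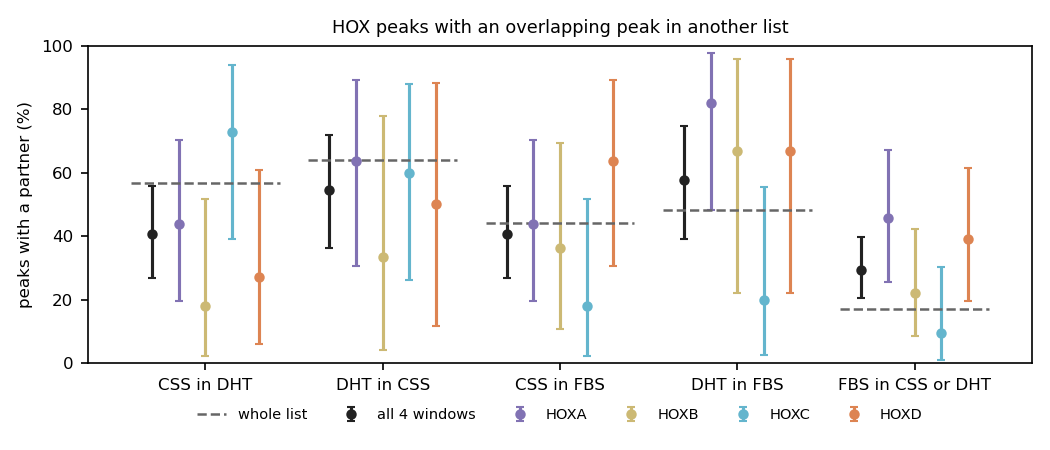
Share of HOX peaks of a list with an overlapping peak in another list (y axis, %), for all 4 windows together and for each cluster; bars are exact 95% intervals and dashed lines give the share over the whole list. CSS peaks with a DHT partner (40.8%) lie below their list, FBS peaks with a CSS or DHT partner (29.5%) above theirs, and the clusters scatter widely.

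Merging the 3 lists gave 126 HOX regions, 32 in HOXA, 35 in HOXB, 32 in HOXC and 27 in HOXD. In all 3 lists 11 were called (8.73%, 4.44 to 15.1%), against 7.67% of all regions of the series. Regions called in FBS alone made up 53.2% (67 regions, 44.1 to 62.1%), against 68.4%, and regions called in CSS alone 15.9% (20 regions, 9.97 to 23.4%), against 7.57%. Regions of CSS and FBS only made up 6.35% (8 regions, 2.78 to 12.1%), against 2.69%. The other classes did not differ from the series beyond counting error. Regions of CSS and DHT only made up 5.56% (7 regions, 2.26 to 11.1%), against 5.97%, those of DHT and FBS only 4.76% (6 regions, 1.77 to 10.1%), against 2.61%, and those of DHT alone 5.56% (7 regions, 2.26 to 11.1%), against 5.10%. The CSS-only share stood out in HOXA, with 8 of 32 regions (25%, 11.5 to 43.4%), and the share of CSS and FBS only in HOXD, with 5 of 27 (18.5%, 6.30 to 38.1%).

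The 11 regions called in every list were unevenly spread, with 6 in HOXA, 2 each in HOXC and HOXD and 1 in HOXB. Their strongest summits in the 3 lists lay within 90 to 547 bp of one another, with a median spread of 182 bp. Their strongest FBS peaks stood at a median percentile of 79.9 (range 32.4 to 99.0), their CSS peaks at 54.3 (13.3 to 81.8) and their DHT peaks at 38.5 (16.4 to 96.6).

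Of the 6 in HOXA, the 1 at chr7:27275009-27275434 stood highest in FBS, with −log10 q values of 8.43 in CSS, 4.58 in DHT and 13.8 in FBS. It lay toward the high edge, on the HOXA13 side. An adjoining pair, chr7:27169593-27170445 and chr7:27170469-27170868, formed a compact group near the middle of the window. In FBS the second of this pair had the highest fold enrichment of any HOXA peak, at 6.52, and CSS and DHT had 5.99 and 4.78 there. The region at chr7:27083728-27084808 near the low edge stood at percentile 81.8 of the CSS list, 77.3 of the DHT list and 32.4 of the FBS list. The region at chr7:27135687-27136499 stood at percentiles 34.7, 17.3 and 86.1 in CSS, DHT and FBS. The sixth, chr7:27239514-27240359, holds the strongest DHT peak described above.

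In HOXD, the regions called in every list were chr2:177052924-177054026, 1103 bp long, and chr2:177072956-177073336, both on the HOXD1 side. The second was the most alike among the lists in position, with CSS and DHT summits 5 bp apart. The strongest FBS peak of HOXD, chr2:177005133-177005917 (fold enrichment 6.24, −log10 q 14.2, rank 2155), had a CSS partner and no DHT partner. In HOXC they were chr12:54332651-54333385 on the HOXC13 side, weak in every list (percentiles 20.8, 16.4 and 33.9), and chr12:54411689-54412405. The strongest FBS peak of HOXC by −log10 q, chr12:54411235-54411640 (11.7, fold enrichment 4.84), stood just beside the latter and overlapped no CSS or DHT peak. By fold enrichment the FBS leader of HOXC was another peak, chr12:54321858-54322111 (6.37, −log10 q 7.44), also without a partner.

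HOXB13, the prostate lineage gene, had no ZBTB7A peak in either depleted-serum condition. The number of summits inside chr17:46802000-46806000 was 0 in each of the 3 lists. An FBS peak, chr17:46805842-46806086, overlapped the high end of the interval by 159 bp, with its summit 51 bp outside. The interval is known only to the nearest kb, so whether that summit lies inside the gene could not be told. Counts are thus given both by summit, which leaves this peak out, and by overlap, which includes it. This FBS peak was weak, with a fold enrichment of 2.78, a −log10 q of 3.31 and rank 101907 of 124868. The nearest CSS summits lay 46.1 kb below and 18.9 kb above the interval, and the nearest DHT summits 46.2 kb below and 88.7 kb above.

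Around HOXB13 the FBS list held a group of peaks that the other lists lacked. Within 10 kb of the interval there were 5 FBS summits, against 0 in CSS and 0 in DHT, and within 25 kb there were 6, 1 and 0. The peaks at chr17:46796631-46796913 (−log10 q 7.51, percentile 88.0) and chr17:46800032-46800384 (7.30, percentile 87.4) were the strongest of the 5, although their fold enrichments were only 3.91 and 3.47. The others stood at percentiles 34.6, 18.4 and 54.9. By the GRCh38 gene order, the MIR3185 and PRAC1 genes are the nearest neighbours of HOXB13 on the lower side. FBS peaks far from the other lists are common in this long list: 57.3% of all FBS peaks had no CSS or DHT summit within 10 kb, against 22.1% of HOX FBS peaks (21 of 95, 14.2 to 31.8%), 11 of 27 in HOXB and 0 of 23 in HOXD.

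**Figure D5:**
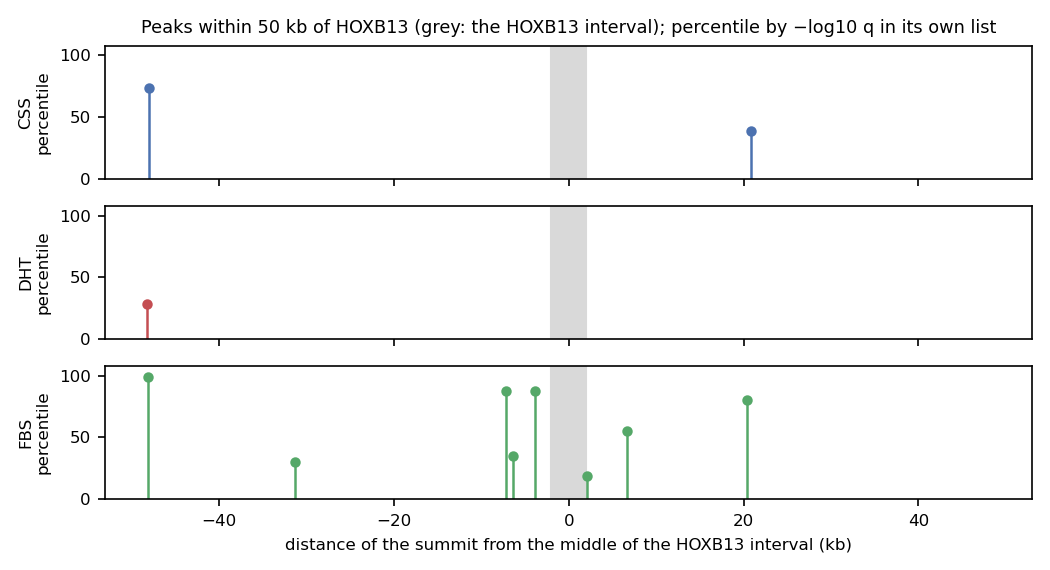
Summits within 50 kb of HOXB13 in CSS, DHT and FBS (x axis, kb from the middle of the grey HOXB13 interval), with the percentile by −log10 q in the list on the y axis. The region 46.1 kb below the interval is marked in all 3 lists, and the 5 summits within 10 kb of the interval are FBS only.

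The strongest FBS peak of all 4 clusters lay in the HOXB window, 46.1 kb below the HOXB13 interval, at chr17:46755546-46756138. It had a fold enrichment of 8.22, a −log10 q of 17.0 and rank 1197 of 124868, at percentile 99.0. The same place held the strongest HOXB peak of CSS (chr17:46755775-46756032, fold enrichment 7.17, −log10 q 7.51, percentile 73.8) and a weaker DHT peak (chr17:46755511-46756000, fold enrichment 5.16, −log10 q 4.06, percentile 28.5). It was the only HOXB region called in all 3 lists, and its summits spread over 142 bp. The strongest HOXB peak of DHT lay elsewhere, at chr17:46641464-46642029 (fold enrichment 6.10, −log10 q 5.50, percentile 53.6), with a CSS partner and no FBS partner.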

How the data were processed

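Peaks of ZBTB7A ChIP-seq from VCaP cells were used as 3 lists in narrowPeak format, 1 per condition (CSS, DHT, FBS). The build hg19 is named in the submitters' processing notes, which also list MACS2 (2.0.10.20131216), BWA (0.7.2-r351) and SAMtools (0.1.18). The sources used here do not give the control, the calling threshold or how libraries were combined. For each peak the authors deposited a fold enrichment, which is a ratio, and a −log10 q. The deposited score equals the whole part of 10 times −log10 q for 100% of peaks. These values depend on depth, which is unknown, so they served only to describe and rank peaks within a list.

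Windows and the HOXB13 interval were fixed by position. The members and the sets of comparisons were chosen with earlier results of these data known. Positions are written with a first base of 1. Densities used chromosomes 1 to 22, X and Y, each taken up to its last peak, and tiles without any peak were left out. Named peaks were taken from the leaders by fold enrichment and by −log10 q and the widest peaks of each window and list, not all of which are named. Others were all regions called in 3 lists, peaks near HOXB13 and peaks at window edges. The peaks far apart in rank and the runs of FBS peaks were chosen after their values were seen. HOX cofactor genes were to be treated in the same way if an hg19 annotation was used, and were not analysed here. Share intervals are Clopper-Pearson, counts have exact Poisson intervals, ratios have exact conditional binomial intervals, and medians have order-statistic intervals. Peaks are not independent, so intervals are too narrow to that extent. Alternatives covered window edges, thresholds, list length, overlap and ranking. The tools were scipy 1.17.1, pandas 2.3.3 and numpy 2.4.6 under Python 3.11.15, with matplotlib 3.10.9 for plots. As a check of the code, copies of real CSS peaks were planted with shifts shorter than the narrowest peak, and 100% were recovered. Such shifts fix that outcome in advance, so it shows only that the code ran as intended. Merging the deposited lists gave 151256 regions, as bedtools did.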

Additional observations from a re-analysis of the deposited data

How the results depend on the processing

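Alternative settings gave 66 values, of which 30 lay close to the reported value (inside its interval or, for counts, within 1.5-fold), 33 lay farther away and 3 changed side. No paired analysis was possible because each condition has 1 peak list, although libraries of CSS and DHT carry the same numbers. Leaving out a library could not be done either. The 500 kb flanks and the overlap with HOXB13 were chosen after the data had been seen. Unless the alternative's construction shows the cause (fewer peaks, a stricter or looser overlap), the cause was not tested.

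Peak counts in the windows kept within 1.5 times when windows were widened by 50 kb, narrowed by 20 kb or filled by overlap. Among peaks reaching a −log10 q of 5 there were 13 in CSS, 11 in DHT and 41 in FBS, and among those reaching 10 there were 1, 1 and 6. With equal numbers of top peaks FBS had 29, and 72 merged regions and 6 regions of all 3 lists were left. Density relative to the list was 2.36 in CSS and 2.01 in DHT at a −log10 q of at least 5; at 10 it turned below 1 in CSS (0.610) and DHT (0.824) and was 3.25 in FBS. Against the flanks the CSS density was 2.68, the DHT density 1.93 and the FBS density 1.45 times as high. By fold enrichment the FBS median percentile turned from above 50 to 27.7. Peaks of at least 500 bp made up 13.7% in FBS. Counting overlap, HOXB13 had 1 FBS peak.

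Shares with a partner are given in the order CSS in DHT, DHT in CSS, CSS in FBS, DHT in FBS, FBS in CSS or DHT. With 50% overlap of both peaks they were 20.4, 30.3, 16.3, 21.2 and 13.7%. With summits within 100 bp they were 16.3, 24.2, 24.5, 36.4 and 20%. With peaks within 500 bp the shares that moved were 59.2% for CSS in FBS and 44.2% for FBS in CSS or DHT. Among peaks reaching a −log10 q of 5 the first 3 were 61.5, 72.7 and 61.5% and the last was 48.8%. Whole-list shares under these settings are not given, so these values show only how the HOX shares move. Depth is unknown, and 6 to 27 peaks per cluster and list limit all comparisons among clusters.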

Other observations

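The windows were bounded by position, and the nearest peaks on either side of their edges show what the bounds decided. The low edge of HOXA lay 4.55 kb from a CSS summit inside and 60.4 kb from the next CSS summit outside, and its high edge lay 20.6 kb and 157 kb from them. In FBS the HOXA summits nearest the edges lay 3.86 kb inside and 3.33 kb outside at the low edge and 0.350 kb inside and 15.2 kb outside at the high edge. A CSS summit stood 0.226 kb outside the high edge of HOXC. Below HOXB no CSS summit was called for 250 kb.

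Runs of at least 3 neighbouring FBS summits with no CSS or DHT summit within 10 kb of any occurred in 2 clusters, and this rule was made after the data had been seen. The run in HOXA held 5 summits over 8.70 kb, from 27109281 to 27117980, at percentiles 9.98 to 69.1 of the FBS list. The run in HOXB held 6 over 38.0 kb, from 46772654 to 46810679, and includes the 5 near HOXB13. Fold enrichments ranged from 3.74 to 5.19 in the HOXA run and from 2.78 to 4.06 in the HOXB run.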
